A study of Mus musculus with 16 samples.

Results

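Yap1 and Wwtr1, the genes of the transcriptional co-activators Yap and Taz, were followed through RNA, open chromatin, histone acetylation and Tead binding in progenitors of the organ of Corti, the hearing epithelium of the mouse cochlea. Both genes were found by symbol in the deposited RNA tables and make up 2 of the 48709 genes listed there. Around them, every deposited peak within 50 kb of either gene was taken, which gave 41 of 335380 ATAC regions, 28 of 267936 H3K27ac regions and 17 of 74967 Tead regions for Yap1. The same window gave 53 ATAC, 35 H3K27ac and 13 Tead regions for Wwtr1. The study has 16 libraries of cells sorted from mouse embryos. The E12.0 cells carried Sox2-GFP, a reporter of prosensory progenitors, and the E13.5 cells carried p27-GFP, a reporter of the cell cycle inhibitor gene Cdkn1b. RNA was measured in 2 libraries per stage, open chromatin in 3 per stage, H3K27ac in 2 per stage and Tead binding in 2 libraries at E12.0. Age and sorting reporter change together, so their effects cannot be told apart. The labels do not say that replicates came from separate litters, and the p-values measure only the spread between these libraries.

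Yap and Taz are paralogous proteins that do not bind DNA themselves and act through the Tead transcription factors. The Hippo kinases phosphorylate both proteins, which holds them in the cytoplasm or marks them for degradation, so the activity of Yap and Taz is set largely after their RNA is made. In growing epithelia they are known for driving proliferation, and the title of the study names Yap and Tead as governing the self-renewal of these progenitors.

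The RNA libraries held between 9412326 and 19570946 expected counts. The E13.5 libraries had more RNA of the sorted reporter gene Cdkn1b (228.5 and 182.3 CPM, counts scaled to library size with TMM factors, against 7.70 and 8.59 in E12.0 cells). Sox2, the other reporter gene, had 36.9 and 39.4 CPM in E12.0 cells and 152.3 and 168.6 in E13.5 cells. Of 10 prosensory markers, 6 rose and 2 fell, where 22.4% and 23.5% of all genes tested did, and all 10 passed the expression filter. Of 8 markers of mesenchyme, Twist1, Prrx1, Pou3f4 and Tbx18 stayed under 1 CPM in all 4 libraries. Postn fell (26.55 and 37.78 CPM in E12.0 cells to 4.62 and 12.25 in E13.5 cells), as did Lum. Col1a1 and Col1a2 were not called, with at most 2.16 and 4.83 CPM in any library. The summed level of the list was 1274 and 1141 CPM in E12.0 cells versus 362.6 and 465 in E13.5 cells, nearly all of it Lum. The summed level of 5 glial and neural crest markers was 1792 and 2102 CPM in E12.0 cells versus 644.2 and 680.2 in E13.5 cells. Erbb3 made up most of it and fell, while Sox10 of the same list rose, with 49.5 and 51.8 CPM in E12.0 cells and 181.3 and 201.6 in E13.5 cells, and Foxd3 stayed under 1 CPM. The summed level of 5 neuronal markers was 17.9 and 24.0 CPM in E12.0 cells and 13 and 11.3 in E13.5 cells. Of these, 1 fell, 3 were not called and 1 was below the filter, where 23.5% of all genes tested fell. Neurod1 fell (7.84 and 13.7 to 0 and 0.0424 CPM), while Tubb3, not called, was higher in E13.5 cells (4.13 and 5.25 to 10.05 and 9.11 CPM). The summed level of 4 melanocyte markers was 0.275 and 0.118 CPM in E12.0 cells and 2.76 and 26.0 in E13.5 cells, highest in the second E13.5 library, and Dct rose (0 and 0 to 2.05 and 16.5 CPM). Mitochondrial transcripts made up 17.5% and 13.7% of E12.0 counts and 2.21% and 1.49% of E13.5 counts. Nearly all of the E12.0 share was the ribosomal RNA mt-Rnr2, with 16.99% and 13.19% of E12.0 counts and 0.295% and 0.180% of E13.5 counts. The other mitochondrial transcripts together had a larger share at E13.5. The gap between a gene's length and its effective length, a measure that grows with the sequenced fragments, had a median of 146 and 141 bases in the earlier libraries and of 189 and 188 in the later ones. The part of these differences in the results on Yap1 and Wwtr1 was not tested. A fit without the mitochondrial genes is given beside those results. It only takes their counts out and cannot show what the libraries' difference in mitochondrial share did to other genes.

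The 250 bases before each start site are shown because open chromatin covered both and Tead peaks reached 1 of them. They are RefSeq sequences of the build GRCm38.p6 read 5′ to 3′ on the minus strand, on which both genes lie, and capitals mark GGAATG, the core of the Tead recognition element. The Yap1 stretch is chr9:8004597-8004846 and the Wwtr1 stretch is chr3:57575911-57576160, which ends at the more upstream of the RefSeq start sites listed for Wwtr1.
Yap1: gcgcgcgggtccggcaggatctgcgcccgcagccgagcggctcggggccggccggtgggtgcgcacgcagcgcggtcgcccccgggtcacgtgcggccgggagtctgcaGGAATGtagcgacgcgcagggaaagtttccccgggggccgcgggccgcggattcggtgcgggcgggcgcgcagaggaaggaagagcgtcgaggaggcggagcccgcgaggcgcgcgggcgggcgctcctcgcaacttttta
Wwtr1: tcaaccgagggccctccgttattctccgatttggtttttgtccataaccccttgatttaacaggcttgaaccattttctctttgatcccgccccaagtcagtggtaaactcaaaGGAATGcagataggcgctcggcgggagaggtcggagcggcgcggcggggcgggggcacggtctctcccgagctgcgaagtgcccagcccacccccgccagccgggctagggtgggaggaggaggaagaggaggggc
GGAATG and its reverse complement CATTCC were searched on both strands over 300 bases, from 250 before to 50 after the start. Each gene had 1 match, with its first base at -141 for Yap1 and at -136 for Wwtr1 relative to the start site. At least 1 match was found in 14.6% of the promoters of 27025 genes. The AP-1 element TGANTCA, where N is any base, had no match in either window and occurred in 7.93% of all promoters. The Yap1 promoter was 74.0% G or C, above 95.5% of promoters, and the Wwtr1 promoter 61.7%, above 75.6% of them, against a median of 52.7%. A match is a description of the letters and not a binding site.

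Yap1 RNA was abundant at both stages and lower at E13.5. Its TMM-scaled level was 252.5 and 269.4 CPM in E12.0 cells, then 97.5 and 104.9 CPM in E13.5 cells, from 1836, 2289, 2046 and 2476 expected counts. The values of the stages did not overlap, and replicates lay close to each other. The mean was 261.0 ± 11.9 CPM in E12.0 cells and 101.2 ± 5.30 CPM in E13.5 cells (SD, n = 2 per stage). The log2 fold change was -1.37 ± 0.24 (SE), a 2.58-fold lower level (edgeR quasi-likelihood test, Benjamini-Hochberg adjusted p = 0.0011 over 15982 genes). A change of this direction was common: 23.5% of all genes tested fell, and 20.0% had a more negative log2 fold change than Yap1. Fewer cells with the transcript and less transcript per cell cannot be told apart in bulk RNA, here or below.

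Wwtr1 RNA was lower at E13.5 as well, with the E12.0 libraries further apart. Its level was 268.5 and 178.7 CPM in E12.0 cells, then 49.1 and 53.5 CPM in E13.5 cells, from 1952, 1518, 1031 and 1263 expected counts. The first E12.0 library was the highest and both E12.0 libraries were above both E13.5 libraries. The mean was 223.6 ± 63.5 CPM in E12.0 cells and 51.3 ± 3.13 CPM in E13.5 cells (SD, n = 2 per stage). Its log2 fold change was -2.12 ± 0.28 (SE), a 4.36-fold lower level (edgeR quasi-likelihood test, adjusted p = 0.000215). Of all genes tested, 12.5% had a more negative log2 fold change than Wwtr1. With mitochondrial genes removed the log2 fold changes were -1.35 for Yap1 and -2.11 for Wwtr1.

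The call for Yap1 depended on the scale. TPM divides each count by the gene's effective length and rescales each library to the same total, with no TMM factor. On TPM the Yap1 level was 69.98 and 94.97 in E12.0 cells versus 56.3 and 57.8 in E13.5 cells, and the Wwtr1 level was 65.2 and 54.9 against 24.2 and 25.8. Neither gene's stages overlapped. On log2(TPM + 1), limma gave -0.51 for Yap1 (adjusted p = 0.15, not called) and -1.23 for Wwtr1 (adjusted p = 0.00664, called). The median of all genes moved from 0.05 with TMM scaling to 0.76 on this scale. Relative to the median of each scale, Yap1 stood at -1.26 and Wwtr1 at -1.98 on TPM, against -1.42 and -2.17 with TMM scaling.

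Among protein-coding genes ranked by TPM, Yap1 lay above 91.9% and 93.3% of genes in E12.0 cells and above 82.2% and 82.6% in E13.5 cells. Wwtr1 lay above 91.2% and 87.6% in E12.0 cells and above 67.6% and 69.0% in E13.5 cells. Both genes thus held a lower place at E13.5 in every library, and Wwtr1 lay below Yap1 in all 4 libraries.

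**Figure D1:**
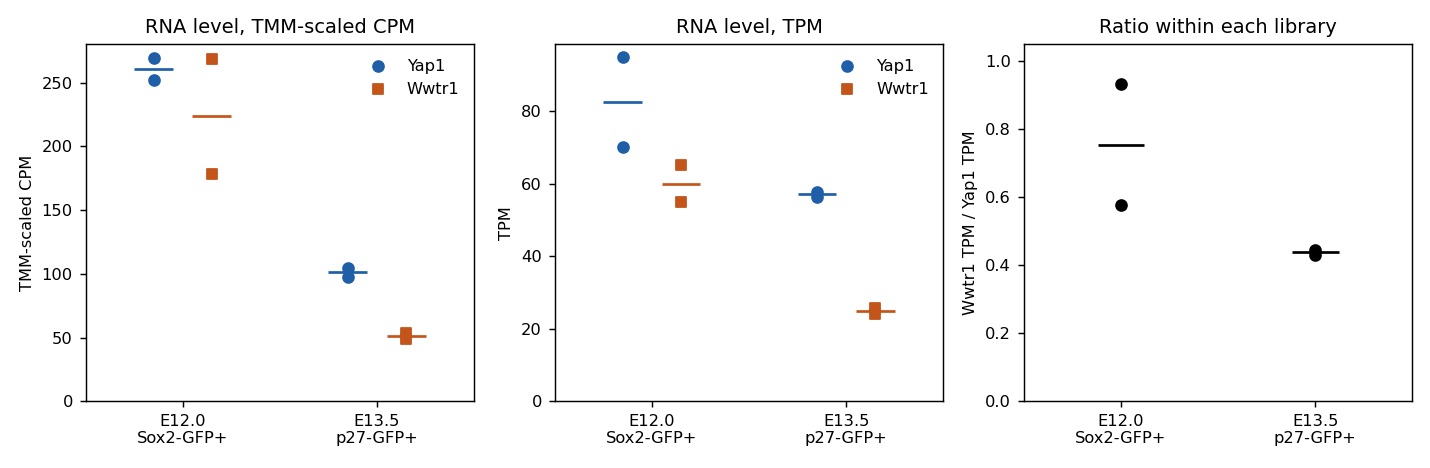
RNA level of Yap1 and Wwtr1 in each library on both scales, TMM-scaled CPM and TPM, and the ratio of Wwtr1 to Yap1 TPM, with 1 point per library and a line at each stage mean (n = 2 per stage). Both genes are lower in both E13.5 libraries, and the Yap1 stages lie closer together on TPM (82.5 ± 17.7 against 57.1 ± 1.11) than on CPM (261.0 against 101.2).

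The balance between the paralogues was then compared, per length, within each library. The ratio of Wwtr1 to Yap1 TPM was 0.931 and 0.578 in E12.0 cells, then 0.430 and 0.446 in E13.5 cells. Wwtr1 made up 48.2% and 36.6% of the summed level of both genes in E12.0 cells and 30.1% and 30.8% in E13.5 cells. The ratio was higher in both E12.0 libraries than in either E13.5 library, but the E12.0 libraries differed from each other. The log2 ratio was -0.45 ± 0.49 at E12.0 and -1.19 ± 0.04 at E13.5 (SD, n = 2 per stage), a difference of -0.75. An exact two-sided permutation test gave p = 0.3333, the smallest that 2 against 2 libraries allow. Without the first E12.0 library the difference was -0.40. The summed TPM of both genes was 135.1 and 149.9 in E12.0 cells and 80.5 and 83.6 in E13.5 cells.

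The genes nearest to the members in pattern were then listed. Likeness was measured as the root mean square difference of centred log2 CPM over the 4 libraries, among 9334 protein-coding genes with a mean of at least 10 CPM. Nearest to Yap1 were Atp6v0a2, a subunit of the vacuolar proton pump (0.0104), Ints7, a subunit of the Integrator complex (0.0153), Jam3, a junctional adhesion molecule (0.0215), Usp25, a deubiquitinating enzyme (0.0256), and Gramd1b, a sterol transfer protein (0.0268). Nearest to Wwtr1 were the ribosomal protein genes Rpl10 (0.0312), Rps10 (0.0415) and Rpl27a (0.0566), the nuclear pore gene Nup54 (0.0546) and Atxn7l2 (0.0563). Ribosomal protein genes have many near-identical copies in the genome, so their counts are uncertain. Wwtr1 stood at 0.436 from Yap1, at rank 2054 of the candidates for Yap1, and Yap1 at rank 916 for Wwtr1. On log2(TPM + 1) none of the 5 genes nearest to Yap1 was called by limma, with values from -0.72 for Atp6v0a2 to 0.01 for Gramd1b.

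The genes around the members were little expressed. Cfap300, which lies 17034 bp from Yap1 and encodes a protein of motile cilia, had 11.6 and 12.01 CPM in E12.0 cells and 7.001 and 8.56 in E13.5 cells (log2 fold change -0.60, edgeR adjusted p = 0.31, and 0.24 on TPM). In the Wwtr1 window Tm4sf4 and Mir6377 had no count in any library, and Gm16016 and Gm26671 were below the expression filter.

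Of the other genes of the pathway, 76 were listed by role, of which 70 passed the filter. Of these, 20 fell, 13 rose and 37 were not called. Over all genes tested, 23.5% fell and 22.4% rose. The median log2 fold change was -0.41 over the list and 0.05 over all genes. On log2(TPM + 1) with limma the direction of the counts turned, to 5 lower and 27 higher, where over all genes 2101 were lower and 6821 higher. Without the first E12.0 library 8 genes of the list rose and 14 fell. Values below are on the TMM scale unless TPM is named.

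The Tead genes encode the factors through which Yap and Taz reach DNA. Tead1 had 78.5 and 127.2 CPM in E12.0 cells and 38.0 and 26.5 in E13.5 cells, and fell by 1.68 ± 0.32 on the log2 scale (SE, edgeR adjusted p = 0.00187). On TPM it was 15.9 and 21.5 against 26.6 and 12.5, with overlapping stages and a change of -0.01. Tead2 had the highest TPM of the 4 Tead genes in each library, with 121.8 and 137.8 in E12.0 cells and 170 and 132.2 in E13.5 cells. In CPM it fell by 0.80 ± 0.24 on the log2 scale (edgeR adjusted p = 0.0207), a call lost in 3 of the 4 fits that left out 1 library and turned to 0.21 on TPM. Tead3 (0.31) and Tead4 (-0.90) were not called, and the sign of each turned when 1 E12.0 library was left out. Vgll4, which competes with Yap for Tead, was the 1 competitor that rose, by 1.07 ± 0.31 on the log2 scale (edgeR adjusted p = 0.0163). Leaving out the first E12.0 or the first E13.5 library ended that call. Vgll1 had no count, Vgll2 was below the filter and Vgll3 was not called.

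The kinase core that phosphorylates Yap and Taz had genes that fell and genes that rose. Of its 7 genes, 3 fell, 1 rose and 3 were not called. Of all genes tested, 23.5% fell, 22.4% rose and 54.1% were not called. Sav1, the scaffold of the upstream kinases, had 35.5 and 40.4 CPM in E12.0 cells and 7.19 and 7.71 in E13.5 cells, and fell by 2.35 ± 0.35 on the log2 scale (SE, edgeR adjusted p = 0.000447). Stk3, an upstream kinase, rose by 0.91 (edgeR adjusted p = 0.0228), a call lost without the second E12.0 or the second E13.5 library. The log2 fold changes of its partner Stk4 (0.61) and of the kinases that act on Yap and Taz directly, Lats1 (0.36) and Lats2 (-0.41), did not pass the test. On TPM limma called Stk4 (1.22) and Lats1 (1.14) higher, while Lats2 turned to 0.45. Among 10 upstream regulators, 3 rose and 2 fell, where 22.4% and 23.5% of all genes tested did. The kinase gene Taok2 rose by 2.84 ± 0.31, the scaffold gene Wwc1 rose by 1.33 and the kinase gene Map4k4 fell by 1.58 ± 0.34, although Map4k4 turned to 0.30 on TPM and fell by 2.22 without the first E13.5 library. Nf2, the tumour suppressor Merlin, was at 0.58 (edgeR adjusted p = 0.0719) and was called higher on TPM (1.77).

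The junction proteins that hold Yap at cell contacts or restrain its kinases included 5 genes of 11 that fell, where 23.5% of all genes tested did, and 2 that rose, where 22.4% did. Amot, a scaffold that binds Yap, had 68.2 and 98.1 CPM in E12.0 cells and 17.8 and 14.5 in E13.5 cells, and fell by 2.37 ± 0.31 on the log2 scale (SE). Its paralogue Amotl1 fell by 1.53 ± 0.24, the phosphatase gene Ptpn14 by 1.56 and the Lats inhibitor Ajuba by 1.47. Amotl2 was not called (-0.21). On TPM limma no longer called Amotl1 (-0.67), Ptpn14 (-0.42) or Ajuba (-0.61), and Amotl2 stood at 0.53.

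Among 10 measured genes of retention and turnover, 2 fell, 1 rose and 7 were not called. Over all genes tested the shares were 23.5%, 22.4% and 54.1%. Ywhag, a phosphoprotein-binding adaptor, fell by 2.29 ± 0.25 and its family member Ywhaz rose by 1.75 ± 0.26 (log2 ± SE). The ubiquitin ligase gene Btrc fell by 0.76, a call lost in each of the 4 fits that left out 1 library. Of 7 nuclear cofactors, 3 fell and 1 rose, where 23.5% and 22.4% of all genes tested did. Med1, a Mediator subunit, had 353.2 and 369.3 CPM in E12.0 cells and 84.4 and 67.5 in E13.5 cells and fell by 2.25 ± 0.25, Ncoa3 fell by 1.62 and Arid1b, of the chromatin remodeller BAF, rose by 1.40. Of 3 tyrosine kinases that can phosphorylate Yap, 2 rose, where 22.4% of all genes tested did. Yes1 rose by 1.62 and Abl1 by 1.14, and Src was not called (-0.41). The Abl1 call was lost without the first E12.0 library, and Ncoa3 was not called on TPM (-0.50).

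Of 22 listed Yap and Tead target genes, 19 were tested, 4 fell, 2 rose and 13 were not called, where 54.1% of all genes tested were not called. Their median log2 fold change was -0.41. Ccn1, a matricellular protein and common Yap readout, had 134.9 and 173 CPM in E12.0 cells and 178.3 and 236.7 in E13.5 cells, which is 0.43 on the log2 scale (edgeR adjusted p = 0.198). Ccn2, of the same family, had 34.6 and 52.7 CPM in E12.0 cells and 57.0 and 36.1 in E13.5 cells, so that the stages overlapped (log2 fold change 0.09). Ankrd1 had at most 3 counts in any library. Tgfb2, a growth factor, had 2402 and 1138 CPM in E12.0 cells and 475.7 and 477.7 in E13.5 cells and fell by 1.89, or by 1.28 without the first E12.0 library. Ccdc80, a matrix protein, rose by 1.33. Ccn1 was called higher on TPM by limma (1.27), and the sign of Ccn2 turned without the first E12.0 or the first E13.5 library.

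**Figure D2:**
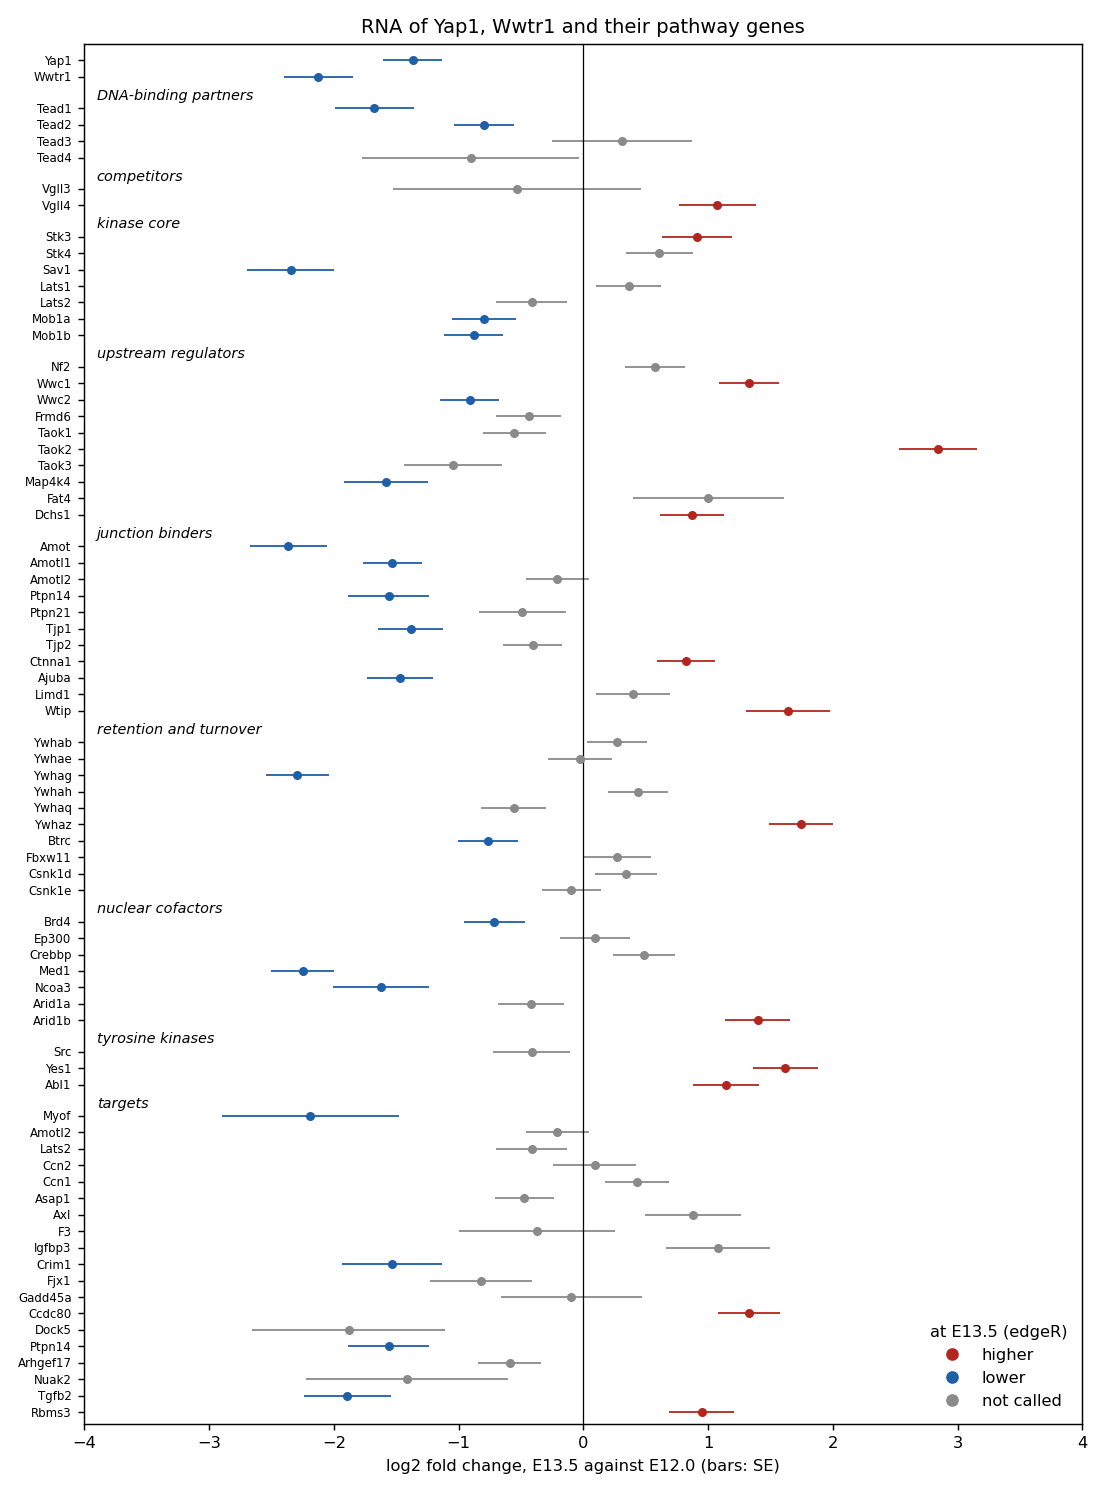
Log2 fold change of E13.5 against E12.0 (edgeR, TMM scaling) for the genes of the pathway lists that passed the filter, grouped by role below Yap1 and Wwtr1, with 1 point per gene coloured by its call and bars for the SE. Amotl2, Lats2 and Ptpn14 stand in more than 1 list and were counted once. Genes that fell and genes that rose occur in most lists, with 20 that fell and 13 that rose in all.

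Open chromatin was read from ATAC-seq, in which a transposase inserts adapters where DNA is accessible. Each region below joins the deposited peaks that overlap across libraries, positions are GRCm38, and the fold of a peak is the authors' own ratio of signal over local background within 1 library. It is given to describe a peak and is not compared between libraries. Yap1 spans chr9:7931999-8004638 and Wwtr1 spans chr3:57455644-57575910. Exons and introns were not separated.

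The number of ATAC peaks near Yap1 was 20, 16 and 12 in E12.0 cells and 22, 20 and 19 in E13.5 cells. The stages overlapped. Near Wwtr1 there were 17, 19 and 12 in E12.0 cells and 30, 24 and 30 in E13.5 cells, without overlap (means 16.0 ± 3.61 and 28.0 ± 3.46, SD, n = 3, exact two-sided permutation p = 0.1, the smallest this design allows, adjusted p = 0.4 over 4 tests). The whole lists were longer at E13.5 too, with 151927 to 161637 distinct peaks against 99248 to 119970. Only the E12.0 ATAC lists held intervals on contigs and scores above 1000. Stage and the way the lists were made therefore cannot be told apart in any ATAC comparison here. Per 10000 peaks of the library, the Wwtr1 window held 1.42 ± 0.19 in E12.0 cells and 1.79 ± 0.19 in E13.5 cells (exact permutation p = 0.2, adjusted p = 0.8), with stages that overlapped. The Yap1 window held 1.43 ± 0.27 and 1.31 ± 0.13 (exact permutation p = 0.6, adjusted p = 0.889).

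Both start sites were open in all 6 libraries. The region over the Yap1 start, chr9:8003373-8005189, had folds of 5.47, 11.6 and 8.05 in E12.0 cells and 6.80, 5.77 and 7.38 in E13.5 cells. The region over the Wwtr1 start, chr3:57574871-57576702, had folds of 8.26, 12.03 and 6.68 in E12.0 cells and 7.63, 9.07 and 8.62 in E13.5 cells. The GGAATG of each promoter printed above lay inside an ATAC peak of all 6 libraries. Regions held by all 6 libraries numbered 5 of 41 near Yap1 (12.2%) and 3 of 53 near Wwtr1 (5.66%), where 10.1% of all ATAC regions were. Regions from 1 library numbered 21 of 41 and 27 of 53, where 57.7% of all ATAC regions were. Near Yap1 the other shared regions lay beyond the 3′ end, at chr9:7897527-7897905, chr9:7902176-7903000 and chr9:7913982-7914968, and before the start, at chr9:8042363-8043290. The last had folds of 9.66 to 19.8 and covers the edge of the Cfap300 span at chr9:8042875, the edge farther from Yap1.

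Of the ATAC regions near Yap1, 3 of 41 (7.32%) were found in each E13.5 list but in none from E12.0, where 6.6% of all regions were. The strongest, chr9:7926058-7927012, lies 4987 bp beyond the 3′ end of Yap1 and had folds of 10.2, 8.89 and 12.3. Its acetylation did not follow the same split, since the H3K27ac region on it, chr9:7926108-7926977, was held by both E12.0 libraries (4.48 and 3.23) and by the first E13.5 library (3.16). A Tead peak of the second E12.0 library overlapped it as well (chr9:7926276-7926766, fold 2.58). The other regions were chr9:7960276-7960729 inside the gene span (5.44, 7.27 and 7.92) and chr9:7907698-7908014 beyond the 3′ end (3.99, 3.19 and 3.01), and neither overlapped an H3K27ac or Tead peak.

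Near Wwtr1, 3 of 53 ATAC regions (5.66%) were found in each E13.5 list but in none from E12.0. They were chr3:57611621-57612228, which lies 35711 bp before the start (folds 4.24, 3.09 and 7.86), chr3:57554714-57555009 inside the gene span (3.30, 2.73 and 2.995) and chr3:57574212-57574397, 1513 bp inside the gene from the start (2.01, 2.31 and 2.45). None overlapped an H3K27ac or Tead peak. No ATAC region in either window was present in each E12.0 list and missing from every E13.5 list, which was so for 0.054% of all regions. The counts of regions at 1 stage moved with single libraries: leaving out each ATAC library in turn gave 3 to 6 E13.5 regions near Yap1, the most without the second E12.0 library, and 3 to 9 near Wwtr1, the most without the second E13.5 library.

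**Figure D3:**
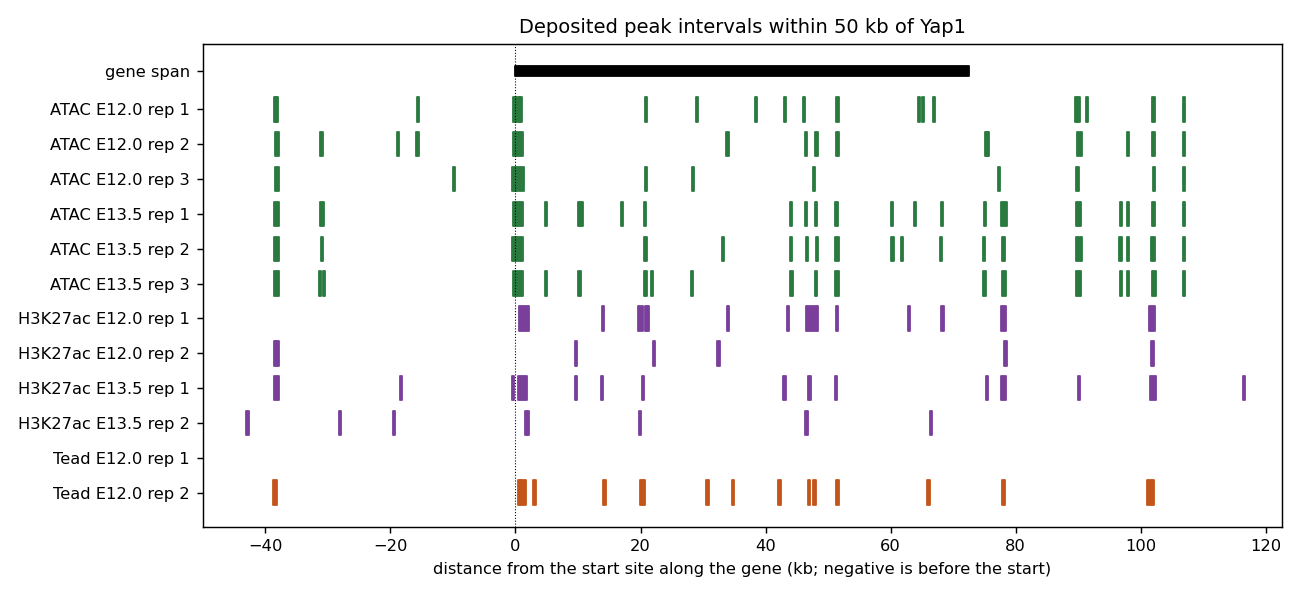
Deposited peaks of each library within 50 kb of Yap1, plotted as distance in kb from the start site, with 1 row per library and a colour per assay. Peaks narrower than 0.35 kb are drawn 0.35 kb wide, the start site carries an ATAC peak in all 6 libraries, and the 17 Tead peaks all lie in the second library.

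**Figure D4:**
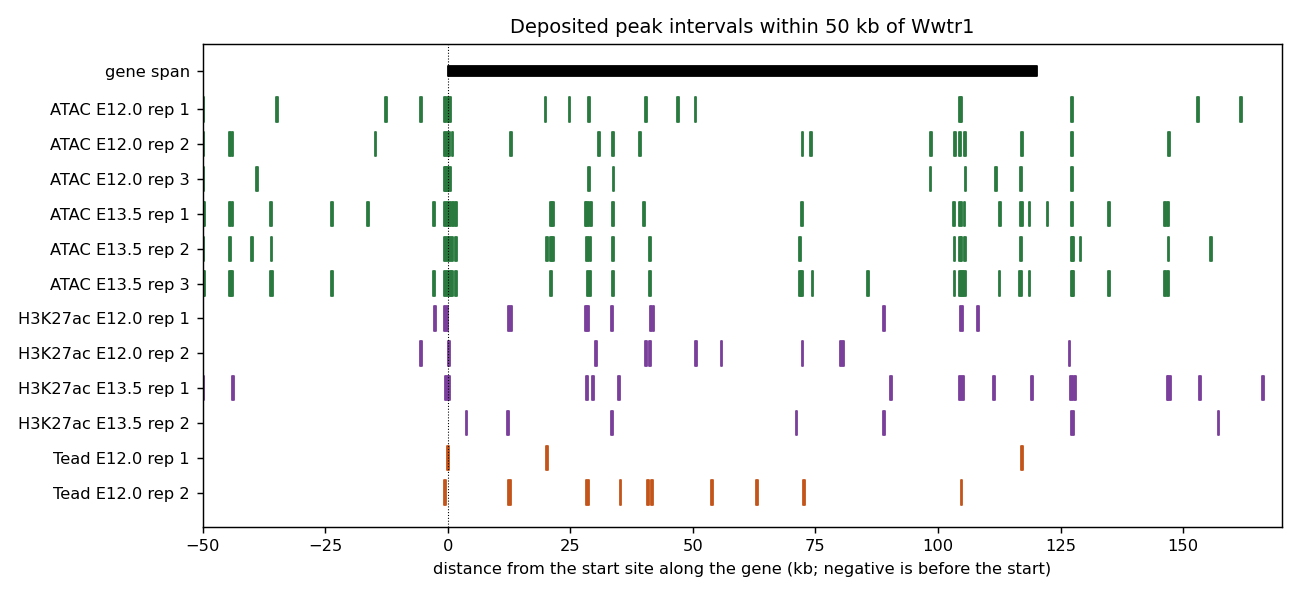
Deposited peaks of each library within 50 kb of Wwtr1, drawn in the same way. The E13.5 ATAC rows hold 30, 24 and 30 peaks against 17, 19 and 12 at E12.0. A Tead peak of the first library covers the start site, and a peak of the second lies 348 bp before it.

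H3K27ac, an acetylated histone mark of active promoters and enhancers, was measured by CUT&RUN, which releases the chromatin around an antibody. Near Yap1 there were 15 and 7 peaks in E12.0 cells and 15 and 8 in E13.5 cells, and near Wwtr1 11 and 10 in E12.0 cells and 16 and 7 in E13.5 cells. The stages overlapped near both genes, and the exact permutation p per 10000 peaks was 1.0 near Yap1 and 0.667 near Wwtr1 (adjusted p = 1.0 and 0.889), with 0.3333 as the smallest possible. Of the regions, 18 of 28 near Yap1 and 28 of 35 near Wwtr1 came from 1 library only. Over all H3K27ac regions the share was 82.4%, which is above that near Yap1. None was held by all 4 libraries, which 1.97% of all H3K27ac regions were.

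Acetylation was called in 3 of 4 libraries over the Wwtr1 start and in a region just inside Yap1. The Yap1 region, chr9:8002368-8004131, has its near end 465 bp inside the gene from the start. It had folds of 3.997 in the first E12.0 library and 5.90 and 3.89 in the E13.5 libraries, and no peak in the second E12.0 library. The peaks of the second E13.5 library there lay 1503 to 1705 and 1836 to 2144 bp inside the gene. Only 2 libraries, the first of each stage, had H3K27ac peaks overlapping the ATAC region over the Yap1 start. The region over the Wwtr1 start, chr3:57575443-57576601, had folds of 3.66 and 2.96 at E12.0 and 5.23 in the first E13.5 library, and no peak in the second. Of the regions near Wwtr1, 1 of 35 (2.86%) was held by both E13.5 libraries and neither E12.0 library, where 1.4% of all regions were. It is chr3:57448242-57448914 (folds 6.30 and 3.93), beyond the 3′ end, and covers an ATAC region open in all 6 libraries. A peak of the second E12.0 library, chr3:57448962-57449242 (fold 2.94), lay close beside it without overlapping, so acetylation next to this site was not limited to E13.5. Near Yap1 no H3K27ac region was called at E13.5 only. None in either window was called at E12.0 only, which 0.877% of all regions were. These counts rested on single libraries: without the second E13.5 library, 6 regions near Yap1 and 13 near Wwtr1 were called at E13.5 only. At E12.0 only, 6 were called near Yap1 without the second E12.0 library and 9 near Wwtr1 without the first. For replicate 1 of H3K27ac at E12.0 another library kit was used than for the other H3K27ac libraries, so kit and replicate cannot be told apart there.

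Tead binding, measured by CUT&RUN at E12.0, differed between its libraries. The first library, made with the KAPA kit, held 18250 peaks, of which 0 lay near Yap1 and 3 near Wwtr1. The second, made with the Accel 2S Plus kit, held 58410, of which 17 lay near Yap1 and 10 near Wwtr1. No Tead region of either window was held by both libraries, which 2.12% of all Tead regions were. Library and kit cannot be told apart.

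Near Yap1, 16 of the 17 peaks of the second library had a −log10 q of at least 2, the highest at 24.0, where 61.7% of all peaks of that library did. Of the 17, 12 overlapped an H3K27ac peak of either stage, 8 an ATAC peak of either stage and 5 neither, against 62.8%, 56.8% and 30.1% of the whole library. The strongest, chr9:7938272-7938839 (fold 4.77), lies in the gene span and overlapped no ATAC peak. It did overlap an H3K27ac peak of the second E13.5 library (chr9:7938109-7938308, fold 2.99). The nearest to the GGAATG of the Yap1 promoter lay 550 bp away. Near Wwtr1, 6 of the 10 peaks of the second library and 0 of the 3 of the first had a −log10 q of at least 2, against 61.7% and 14.0% of the whole libraries. Folds were 1.86 to 2.45 and 2.21 to 2.88. Of the 10 peaks, 4 overlapped an ATAC peak, 6 an H3K27ac peak and 4 neither. Of the 3 peaks of the first library, 3 overlapped an ATAC peak of either stage, 1 an H3K27ac peak and 0 neither, against 15.3%, 19.4% and 74.8% of that whole library. Only 2 of the 3 overlapped an ATAC peak of E12.0, the stage of the Tead libraries.

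Both Tead libraries had a peak in the open region over the Wwtr1 start, but at different positions. The peak of the first library, chr3:57575602-57576120 (fold 2.75, −log10 q 1.32), covers the GGAATG of the printed promoter. The peak of the second, chr3:57576258-57576584 (fold 2.45, −log10 q 3.66), lies further upstream with 137 bases between them and 212 bp from that match. The peaks did not overlap, and no peak of either library covered the start of Yap1 or its GGAATG.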

How the data were processed

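The members, gene lists and rules for naming genes were chosen with earlier results of these data known. Genes were named by role, by likeness and by smallest p within a list (up to 3). Regions were named when they covered a start site or were called at 1 stage. Other regions and single Tead peaks were chosen after their values were seen.

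RNA values are expected counts per gene, deposited by the authors with gene length and effective length per the file headers. Peaks were deposited by the authors as 1 list per library. Each has a fold (ratio) over background, −log10 p and −log10 q in the deposited lists. The deposited score was not used. Per the submitters' processing notes, STAR, MACS2 and UMI-tools were among the tools and the builds were GRCm38 and mm10. ATAC lists repeat an interval for each summit, so distinct intervals were counted. The deposited lists differed in form: E12.0 ATAC lists hold 47 to 70 intervals on contigs and scores above 1000, the others none. For ATAC this difference runs along stage.

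Counts were rounded, filtered with filterByExpr, scaled by TMM and tested by edgeR 4.0.16 (quasi-likelihood, 2 against 2 libraries, no covariate, adjusted p threshold 0.05), with limma 3.58.1 and DESeq2 1.42.0 as alternatives. TPM came from the expected counts and effective lengths. Replicates were not duplicates of each other (chi-square of their counts over its degrees of freedom, 29.7 and 46.7). Peaks overlapping by 1 bp or more formed a region. Steps were tested on simulated data.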

Additional observations from a re-analysis of the deposited data

How the results depend on the processing

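Yap1 and Wwtr1 kept their direction in every fit run. Leaving out each RNA library gave -1.43 to -1.31 for Yap1 and -2.39 to -1.82 for Wwtr1 (log2), all called by edgeR. DESeq2 gave -1.42 and -2.18, and no filter -1.29 and -2.05. Only log2(TPM + 1) with limma lost a call, Yap1 at -0.51. There the pathway counts were 5 lower and 27 higher, and the split over all genes was 6821 higher and 2101 lower against 3579 and 3761. Leaving out a library gave 14 to 17 pathway genes lower and 8 to 13 higher, the fewest higher without the first E12.0 library, and -1.09 to -0.40 for the ratio.

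Same-numbered libraries did not deviate together over genes (correlation 0.01). The labels do not say whether the numbers pair the samples, and this correlation cannot decide it. With the replicate number as a block, edgeR gave -1.37 for Yap1 and -2.10 for Wwtr1, 22 pathway genes lower and 14 higher, and 7138 calls against 7340.

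Signs that turned on TPM were Tead2 0.21, Vgll3 0.067, Lats2 0.45, Amotl2 0.53, Map4k4 0.30, Btrc 0.049, Gramd1b 0.013 and Cfap300 0.24. Leaving out 1 library turned signs within ranges of -0.36 to 1.55 for Tead3, -1.57 to 0.30 for Tead4, -1.95 to 0.24 for Vgll3 and -0.27 to 0.43 for Ccn2. The cause was not tested.

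Differences in peaks per 10000 changed sign for ATAC near Yap1 and for H3K27ac near both genes. Near Yap1 the ATAC difference (-0.12) was 0.0048 within 10 kb and -0.23 to 0.0353 when each library was left out, and the H3K27ac difference (-0.37) was -1.15 to 0.41. Near Wwtr1 the H3K27ac difference (-0.25) was 1.16 at −log10 q of at least 2, 0.0216 in covered bases and -0.56 to 0.0611 with each library left out, while ATAC stayed at 0.27 to 0.48. E13.5 ATAC regions numbered 5 near Yap1 at −log10 q of at least 2 and 6 near Wwtr1 at 50% overlap. Leaving out each library gave 3 to 6 E13.5 and 0 to 1 E12.0 ATAC regions near Yap1, and 3 to 9 and 0 to 1 near Wwtr1. For H3K27ac it gave 0 to 6 E13.5 and 0 to 6 E12.0 regions near Yap1, and 1 to 13 and 0 to 9 near Wwtr1. Tead regions went from 0 to 17 near Yap1 and 3 to 10 near Wwtr1 with 1 library. With 2 or 3 libraries a stage, no peak test could reach 0.05.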
